A study of Mus musculus with 2 samples.

Results

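Gel-forming mucus is built from very large mucins that are made, folded, glycosylated and packed into granules by specialised secretory cells. Muc5b and Muc5ac encode gel-forming mucins, Agr2 encodes a protein disulfide isomerase of the endoplasmic reticulum that mucin folding needs, and Galnt6 encodes a Golgi enzyme that starts O-linked glycan chains. Tff1 and Tff2 encode trefoil peptides that are secreted together with mucins, and Fcgbp encodes a large mucus protein with von Willebrand factor D domains. In the cervix this mucus fills the canal and acts as a barrier, and its amount and texture follow the ovarian hormones.

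These 7 genes were taken by symbol from the 31053 genes counted in each of 2 single-cell RNA-seq libraries of mouse cervix, and all 7 were found. Every mouse was a C57BL6/129 female, ovariectomized at 7 to 8 weeks of age and left to recover for 2 weeks. The control mice then had no treatment over the 15 days of the experiment. The progesterone mice were injected under the skin with E2 (100 µg per day, in corn oil) on 2 days and then carried a 25 mg pellet with a 21-day release, estimated at 1 mg of progesterone per day. The E2 priming and the progesterone came together, so their parts in any difference cannot be told apart. Each library pooled 9 mice, so there was 1 sample per group, no replicate check and no test between groups. All intervals below are 95% intervals that cover counting error only.

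After filtering, 4579 control cells and 8541 progesterone cells were analysed, with median depths of 3630 and 4021 unique molecular identifiers (UMIs, each a captured transcript). The libraries shared 19 cell barcodes. Clusters were found without the 7 genes, and each was named by marker genes, always as "-like". Luminal-like cells numbered 217 in the control library (4.74% of its cells) and 1781 in the progesterone library (20.9%), squamous-like cells 2775 and 4324, and immune-like cells (neutrophil-like and macrophage-like) 594 and 805. Cold protease dissociation and a 40 µm strainer came before capture, and their part in these shares was not tested.

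No luminal-like cluster held a sizeable number of cells from both libraries. In the control library, cluster 21 (125 cells) and cluster 24 (90 cells) made up nearly all luminal-like cells. In the progesterone library, cluster 6 (770 cells), cluster 8 (500 cells) and cluster 10 (468 cells) did. The leading genes were Agr2, Muc5b and Spdef in cluster 6, Gp2, Pigr and Olfm4 in cluster 8, Clca1, Aqp8 and Fcgbp in cluster 10, and Upk3a and Upk1a in cluster 24. Cluster 21 was led by late squamous genes such as Slurp1, Lce3c and Krt78 next to the luminal keratin Krt8, and it held Krt5, a basal squamous keratin, at 3158 counts per 1000000 UMIs of the cells (CPM) beside 3790 of Krt8. Summed over all luminal-like cells, the 10 luminal markers stood at 15055 CPM in control cells and 8470 in progesterone cells. The 9 basal squamous markers stood at 8476 in control cells and 1464 in progesterone cells, none of them at 0. Krt13, a suprabasal squamous marker, was at 5138 CPM in control and 1365 in progesterone luminal-like cells, and at 6666 in cluster 21. The part of this squamous RNA in the results below was not tested.

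The genes lie on 4 chromosomes of GRCm38, all annotated as protein-coding. Muc5ac (chr7:141788972-141819231) and Muc5b (chr7:141839070-141873084) follow each other on the plus strand with 19838 bp between them, and Fcgbp (chr7:28071236-28120862, plus strand) is elsewhere on the same chromosome. Tff2 (chr17:31141049-31144282) and Tff1 (chr17:31161395-31165277) are neighbours on the minus strand with a gap of 17112 bp. Agr2 is at chr12:35992907-36004087 on the plus strand and Galnt6 at chr15:100691813-100729376 on the minus strand.

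Promoter windows of 300 bases (250 before to 50 after a RefSeq start, GRCm38.p6) matched 3 of the 7 genes, with 2 windows for Galnt6. They were searched on both strands for TGTTTAC (a forkhead core), AGAACA (a steroid receptor core), GGATGT (the motif of Spdef) and ACGTGG (a core of unfolded-protein response elements), none of which overlaps another. Over all 32851 windows in the table, 3.65% held the first, 19.0% the second, 11.1% the third and 8.31% the fourth. Agr2 and Fcgbp are shown because their RNA was found in the same cells as Muc5b, and the second Galnt6 window because it held the one match, in capitals, the reverse complement of AGAACA.
Agr2, chr12:35992675-35992974, plus strand: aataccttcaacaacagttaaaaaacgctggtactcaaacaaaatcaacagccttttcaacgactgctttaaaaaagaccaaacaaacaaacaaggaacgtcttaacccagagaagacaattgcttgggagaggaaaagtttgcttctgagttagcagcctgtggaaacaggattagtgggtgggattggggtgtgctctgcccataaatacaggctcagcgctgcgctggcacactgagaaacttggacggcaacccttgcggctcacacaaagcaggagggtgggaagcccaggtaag
Fcgbp, chr7:28070986-28071285, plus strand: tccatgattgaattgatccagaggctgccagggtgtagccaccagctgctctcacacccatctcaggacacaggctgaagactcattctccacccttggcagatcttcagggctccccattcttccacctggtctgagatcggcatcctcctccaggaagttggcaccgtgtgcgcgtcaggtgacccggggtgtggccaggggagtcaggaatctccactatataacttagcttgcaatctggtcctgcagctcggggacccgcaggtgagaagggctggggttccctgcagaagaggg
Galnt6, chr15:100720428-100720727, minus strand: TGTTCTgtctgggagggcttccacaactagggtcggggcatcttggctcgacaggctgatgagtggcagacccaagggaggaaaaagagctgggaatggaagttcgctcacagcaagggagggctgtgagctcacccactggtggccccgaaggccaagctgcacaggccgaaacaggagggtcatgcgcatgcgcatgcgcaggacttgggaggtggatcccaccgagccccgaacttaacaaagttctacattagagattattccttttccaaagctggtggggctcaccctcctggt
The windows of Agr2 and Fcgbp and the first of Galnt6 held none of the 4 motifs, which says only that these letters are not in these windows.

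Mucus RNA was concentrated in luminal-like cells. In the progesterone library these cells were 20.9% of all cells and carried 25.7% of all UMIs, but 95.6% of the 76586 Muc5b UMIs, 93.9% of the 73694 Tff1 UMIs, 95.3% of the 42603 Agr2 UMIs and 93.5% of the 9386 Fcgbp UMIs. Muc5ac was counted 568 times and Tff2 130 times in the whole library, with 94.0% and 96.9% in luminal-like cells. In the control library the luminal-like cells carried 3.95% of all UMIs and held 88.6% of 2051 Muc5b, 90.5% of 5127 Tff1, 96.0% of 2391 Agr2 and 70.4% of 632 Fcgbp UMIs. Galnt6 was the least restricted. The luminal-like cells held 85.3% of its 4936 UMIs with progesterone but 21.4% of its 793 UMIs in the control library, where the unnamed cluster 15 (335 cells, led by Psca and by cornified envelope genes) held another 22.6%.

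Taking all analysed cells at once, Muc5b stood at 104 CPM without treatment and at 2097 CPM with progesterone, 20.1-fold higher (19.3 to 21.1). Tff1 was 7.75-fold higher, Agr2 9.61-fold, Fcgbp 8.01-fold and Galnt6 3.36-fold. The ratio for Muc5ac was 34.0 (17.8 to 74.8) on 9 control UMIs, and Tff2 had 1 control UMI, which gives a ratio of 70.1 with an interval of 12.4 to 2791. These ratios combine the larger share of luminal-like cells with the level inside them.

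Inside the luminal-like cells the differences between libraries were smaller, and they were uneven between the genes. Of the 2 gel-forming mucins, Muc5b was at 2335 CPM in control cells and 7803 in progesterone cells, a ratio of 3.34 (3.19 to 3.50). Muc5ac, a mucin best known from airway and stomach surface cells, was rare in both, at 6.42 (5 UMIs) and 56.9 CPM, a ratio of 8.86 (3.77 to 27.4). For every 100 Muc5b UMIs there were 0.275 Muc5ac UMIs in control and 0.729 in progesterone luminal-like cells. These are UMIs of transcript ends and are not scaled to transcript length, so a ratio between genes is not a ratio of molecules. Muc19, another gel-forming mucin, was not analysed here.

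Among the trefoil peptides, Tff1 was already abundant in control luminal-like cells, at 5959 CPM against 7374 with progesterone. The ratio was 1.24 (1.20 to 1.28), and it turned to a log2 ratio of -0.12 when cluster 24 was left out. Tff2 was nearly absent, with 1 control UMI and 126 progesterone UMIs, a ratio of 10.5 (1.84 to 416).

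Of the genes that process and bind mucins, Agr2 stood at 2948 and 4327 CPM, a ratio of 1.47 (1.41 to 1.53). Fcgbp stood at 572 and 935, a ratio of 1.64 (1.49 to 1.80), and Galnt6 at 218 and 448, a ratio of 2.05 (1.76 to 2.41). Thus 4 of the 7 genes were at least 2-fold higher with progesterone, where 13.3% of the 11137 genes with at least 20 UMIs in these cells were, and none was 2-fold lower, where 7.72% were. The intervals of Galnt6 and Tff2 reached below 2-fold. The 7 genes were chosen with earlier results of these data known, so this comparison is not a test. The median log2 ratio (with 0.5 added to both counts) was 1.03 over the 7 genes and 0.07 over all 11137.

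These sizes rested on which control cells were counted as luminal-like. When the libraries were clustered apart, 768 control cells took that name and the log2 ratio of Muc5b was 4.18 instead of 1.74, that of Agr2 3.08 instead of 0.55 and that of Tff1 2.79 instead of 0.31. Over 9 alternatives the lowest log2 ratio was 1.31 for Muc5b, 0.12 for Agr2, 0.33 for Fcgbp and 0.61 for Galnt6, each without cluster 24. Galnt6 was then less than 2-fold higher, as it was without doublet removal (0.98), which leaves 3 of the 7 genes at 2-fold, whereas all 7 were when the libraries were clustered apart.

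**Figure D1:**
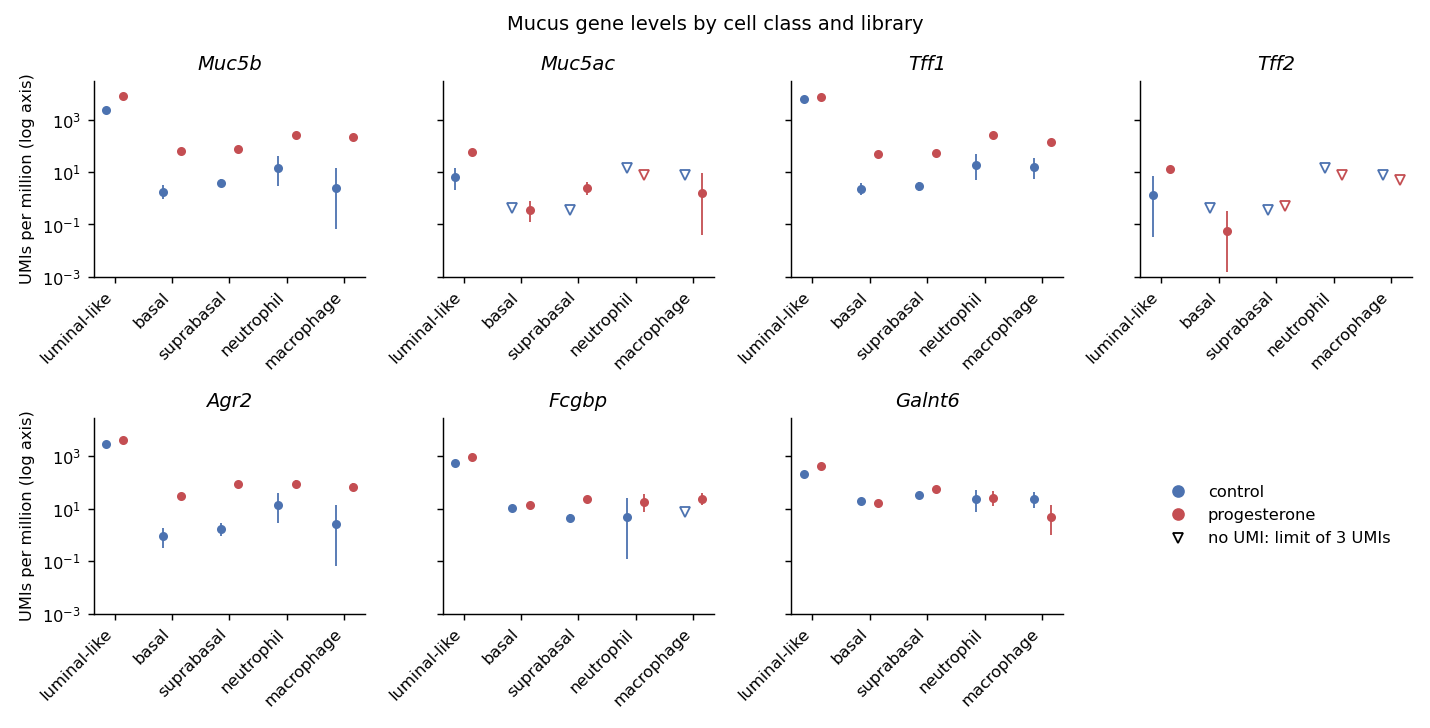
Level of each gene in CPM (log axis) by cell class in the control (blue) and progesterone (red) library; bars are exact Poisson 95% intervals and open triangles mark 0 UMIs at the level of 3 UMIs. Luminal-like cells stand highest for all 7 genes in the progesterone library, with Muc5b at 7803 there and at 2335 in control cells.

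The clusters of luminal-like cells did not carry the genes in one proportion. Muc5b was highest in cluster 6 (10362 CPM, 10270 to 10455), then cluster 10 (6471), cluster 8 (4554) and control cluster 21 (3165). The intervals of these 4 levels did not overlap. Agr2 was also highest in cluster 6 (6677), followed by cluster 21 (3996), cluster 10 (2729) and cluster 8 (1348). Galnt6 was at 553 in cluster 6, 412 in cluster 10, 310 in cluster 8 and 294 (252 to 342) in cluster 21, and the intervals of the last 2 overlapped.

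Tff2 was almost confined to cluster 6, which held 118 of the library's 130 UMIs. Its level there was 25.2 CPM, 10.3-fold (4.58 to 28.6) that of cluster 10 and 24.1-fold (6.53 to 202) that of cluster 8, where 6 and 2 UMIs were counted. In single cells this was a rare signal: 24 of 756 cells of cluster 6 had a Tff2 UMI after thinning to equal depth, 3.17% (2.04% to 4.69%).

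Tff1, Fcgbp and Muc5ac followed another order. Tff1 was highest in cluster 10 (11003 CPM), nearly level in cluster 6 (8274) and control cluster 21 (8080, ratio 1.02, 0.993 to 1.06), and far lower in cluster 8 (1772). Fcgbp was highest in cluster 10 (1512) and was higher in cluster 8 (984) than in cluster 21 (745) or cluster 6 (643). Muc5ac was 29.6 in cluster 6 but 86.0 in cluster 8 and 93.4 in cluster 10, whose intervals overlapped (ratio 0.921, 0.749 to 1.13). Muc5b and Muc5ac, next to each other on chromosome 7, thus had their highest levels in different clusters.

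Against control cluster 21, not every gene was higher in the progesterone clusters. Agr2 was 1.67-fold higher in cluster 6 but lower in cluster 8 (ratio 0.337, 0.319 to 0.357) and in cluster 10 (0.683, 0.651 to 0.716). Tff1 was lower in cluster 8 (0.219, 0.210 to 0.229) and Fcgbp was lower in cluster 6 (0.862, 0.779 to 0.956). Muc5b was higher in all 3, with ratios of 3.27, 1.44 and 2.04 in clusters 6, 8 and 10.

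Control cluster 24 had almost no mucus RNA: 1 UMI each of Muc5b, Agr2 and Galnt6, 16 of Fcgbp and none of Tff1, Tff2 or Muc5ac among its 201949 UMIs. A count of 0 there allows up to 3 UMIs, or 14.9 CPM. The small progesterone cluster 26 (34 luminal-like cells, 296298 UMIs) held 3 UMIs each of Muc5b, Agr2 and Galnt6, and 12 of Tff1. It held 160 UMIs of Fcgbp, which was found in 18 of its 34 cells after thinning to equal depth, while Muc5b was found in none.

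**Figure D2:**
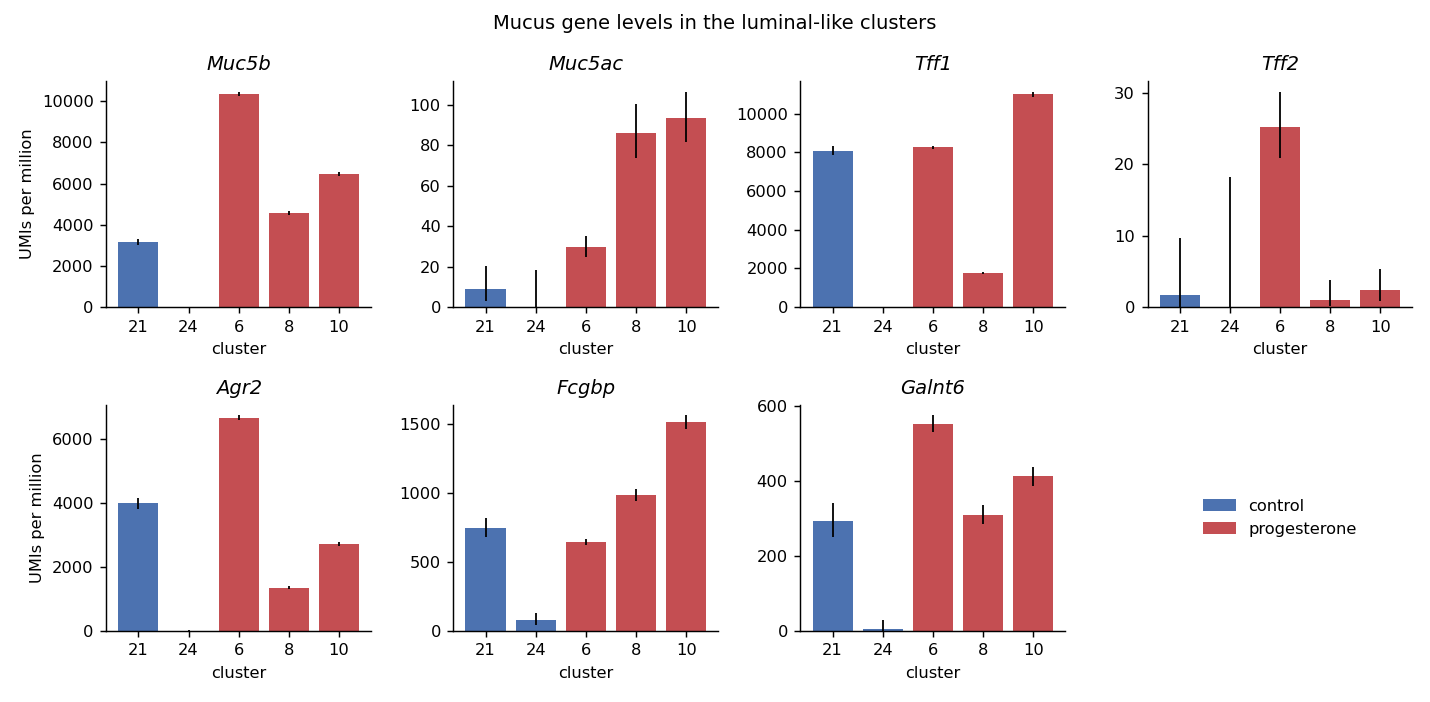
Level of each gene in CPM (each panel with its own axis from 0) in control clusters 21 and 24 (blue) and progesterone clusters 6, 8 and 10 (red), with exact Poisson 95% intervals. Muc5b, Agr2, Galnt6 and Tff2 are highest in cluster 6, while Tff1 and Fcgbp are highest in cluster 10 and Muc5ac is at 86.0 and 93.4 in clusters 8 and 10.

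The balance between the genes differed in the same cells. For every 100 Muc5b UMIs, control cluster 21 had 255 Tff1 UMIs (242 to 270) and 126 Agr2 UMIs (119 to 134). Cluster 6 had 79.8 of Tff1 and 64.4 of Agr2, cluster 8 had 38.9 and 29.6, and cluster 10 had 170 and 42.2. Fcgbp was at 23.6 per 100 Muc5b UMIs in cluster 21, 6.20 in cluster 6, 21.6 in cluster 8 and 23.4 in cluster 10.

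The share of luminal-like cells with each gene was also compared between the libraries. How many of all genes differ in this share was not computed, so the shares are given gene by gene. Each cell was thinned to 2000 UMIs so that depth was equal, which left 154 control cells and 1684 progesterone cells (63 and 97 shallower cells left out; median depths before thinning 2759 and 5075). Muc5b was then found in 27.3% (20.42% to 35.03%) of control cells and 88.7% (87.0% to 90.1%) of progesterone cells, and in 23.5% and 92.8% without thinning. Agr2 was found in 29.2% and 82.2% of thinned cells and Tff1 in 27.3% and 67.6%. Fcgbp was found in 44.8% and 72.1%, and Galnt6 in 30.5% and 52.4%. Muc5ac was found in 1.30% (2 cells) and 10.7%, and Tff2 in 0.649% (1 cell) and 1.60% (27 cells). For Tff2 the intervals of the libraries overlapped (0.0164% to 3.56% and 1.06% to 2.32%), so a difference was not detectable at this depth.

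In the control library 43 of the 154 thinned cells were of cluster 24, which had almost no mucus RNA. Cells with Muc5b, Agr2 or Tff1 were nevertheless minorities even inside cluster 21. Of its 111 thinned cells, 41 had Muc5b (36.9%), 45 had Agr2 (40.5%), 42 had Tff1 (37.8%) and 67 had Fcgbp (60.4%). The median control luminal-like cell had 0 Muc5b UMIs among 2000, the upper quartile was 1 and the highest cell had 68. The median progesterone cell had 10, the upper quartile was 23.3 and the highest was 111. In the control library 10 of the 154 cells carried 50% of the Muc5b UMIs and 7 cells carried 50% of the Agr2 UMIs, whereas 288 and 247 of the 1684 progesterone cells did.

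Several of the genes were often found in the same cell. This number per cell also rises with the share of each gene alone, and the number that unrelated genes would give was not computed. A progesterone luminal-like cell had a median of 4 of the 7 genes, and 65.9% (63.6% to 68.2%) had 4 or more. In control luminal-like cells the median was 1, and 35 of 154 cells had 4 or more (22.7%, 16.4% to 30.2%), all of them in cluster 21. None of these thinned luminal-like cells had all 7. In squamous-like cells 4 or more genes were found in 6 of 4144 progesterone cells (0.145%) and in 0 of 2319 control cells, where a count of 0 allows up to 3 cells, or 0.129%.

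The 35 control cells carried 93.1% of the thinned Muc5b UMIs and 94.9% of the Agr2 UMIs of their class. As a description of these chosen cells, their Muc5b count had a median of 17 UMIs in 2000 and quartiles of 8 and 27.5, and the 1110 progesterone cells with 4 or more genes had a median of 17 and quartiles of 8 and 30. The same cells had a median of 31 Tff1 UMIs in the control library and 9 with progesterone, and of 16 and 7 Agr2 UMIs. The median of Fcgbp was 2 and that of Galnt6 was 1 in both libraries. Such cells thus had the same median Muc5b count in both libraries, and they were 1110 of 1684 cells in one and 35 of 154 in the other. The cells were chosen by the same genes, so these values have no test.

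**Figure D3:**
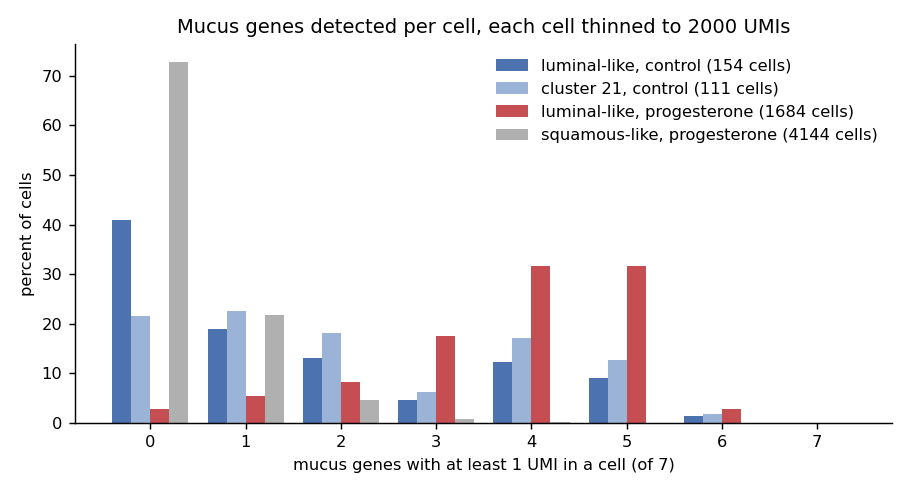
Percent of cells (vertical axis) by how many of the 7 genes had at least 1 UMI after thinning each cell to 2000 UMIs. Progesterone luminal-like cells (red) peak at 4 and 5 genes, control luminal-like cells (blue) at 0, and control cluster 21 (light blue) has 21.6% of its cells at 0 and 31.5% at 4 or more.

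In both libraries Agr2, Tff1, Fcgbp and Galnt6 were found more often in luminal-like cells with Muc5b than in those without. Among control luminal-like cells, Agr2 was found in 88.1% (74.4% to 96.0%) of the 42 cells with Muc5b and in 7.14% (3.13% to 13.6%) of the 112 cells without. Tff1 was found in 73.8% and 9.82%, Fcgbp in 76.2% and 33.0%, and Galnt6 in 59.5% and 19.6% of the same cells. In progesterone luminal-like cells Agr2 was found in 88.6% (86.9% to 90.2%) of the 1493 cells with Muc5b and in 31.9% (25.4% to 39.1%) of the 191 without. Tff1 was found in 73.9% and 17.8%, Fcgbp in 75.6% and 44.5%, and Galnt6 in 55.6% and 27.2%. So the shares among Muc5b-positive cells were within 4 percentage points of each other in the libraries for these 4 partners. The positive cells were 27.3% of one class and 88.7% of the other. With 42 control cells the intervals were wide, at 58.0% to 86.1% for Tff1, 60.55% to 87.9% for Fcgbp and 43.3% to 74.4% for Galnt6. Differences inside these intervals could not be seen.

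The second gel-forming mucin did not follow Muc5b from cell to cell in the progesterone luminal-like cells, pooled over their clusters. Muc5ac was found in 10.9% (9.38% to 12.6%) of progesterone luminal-like cells with Muc5b and in 8.90% (5.27% to 13.9%) of those without. It was found in 9.58% of cells with Tff1 and 13.0% of cells without, and in 10.0% of cells with Agr2 and 13.7% of cells without, with overlapping intervals in each case. Of the 180 cells with Muc5ac, 90.6% also had Muc5b. In control luminal-like cells Muc5ac was found in 4.76% (2 cells, 0.582% to 16.2%) of those with Muc5b and 0% (0% to 3.24%) of those without. With most counts at 1 UMI, a weak relation could not be seen. All 27 progesterone cells with Tff2 also had Muc5b and Tff1 (100%, 87.2% to 100%). Of the 1657 cells without Tff2, 88.5% (86.8% to 90.0%) had Muc5b, an overlapping interval, and 67.0% (64.7% to 69.3%) had Tff1.

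Over the 1684 progesterone cells, Pearson's r of the log counts with Muc5b was 0.68 for Tff1, 0.65 for Agr2, 0.54 for Wfdc18, 0.48 for Pglyrp1 and 0.43 for Fcgbp, the 5 highest of 4455 genes. It was 0.35 for Galnt6, -0.05 for Muc5ac and 0.03 for the mucus protease gene Clca1. Between pairs of Tff1, Agr2, Fcgbp and Galnt6 in these cells, r ran from 0.12 (Agr2 and Fcgbp) to 0.57 (Tff1 and Agr2). In control cells r between Muc5b and Agr2 was 0.92 and between Muc5b and Tff1 0.72 over 154 cells. The cells share a library and a fixed depth, so these values describe and do not test.

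**Figure D4:**
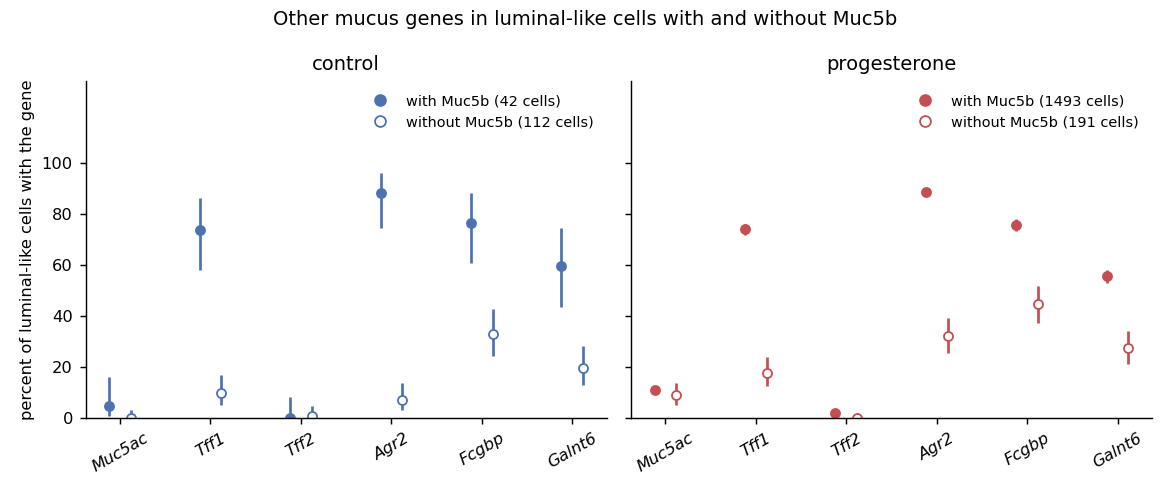
Percent of luminal-like cells with each other gene, among cells with Muc5b (filled) and without Muc5b (open), in the control (left) and progesterone (right) library after thinning to 2000 UMIs; bars are exact binomial 95% intervals. Agr2 is at 88.1% and 88.6% in Muc5b-positive cells of the libraries, while the Muc5ac intervals with and without Muc5b overlap in both.

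Across classes, the levels of Muc5b over 14 class-by-library units were most like those of Tff1 (r = 0.97 of log2 CPM with 10 added), Clca1 (0.96) and Agr2 (0.96), of 11803 genes. Those of Agr2 and Tff1 were most like each other (0.98), and those of Fcgbp most like Ern2 (0.98), the epithelial form of a sensor of unfolded proteins. Galnt6 was most like Serpinb11 (0.94), Rasef (0.93) and Fut2 (0.93). Muc5ac and Tff2 were most like Ugt2b34 (0.99) and Vmn1r38 (1.00), values that rest mainly on the progesterone luminal-like unit, the one unit where either gene exceeded 10 CPM. The units come from 2 libraries and differ in depth, with medians from 581 UMIs (control neutrophil-like) to 6435 (progesterone suprabasal squamous-like). The part of free RNA in these values was not tested.

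Squamous-like cells held little mucus RNA, and most of it was in the progesterone library. Muc5b was at 2.99 CPM in control and 66.7 in progesterone squamous-like cells (ratio 22.3, 16.6 to 30.7), Tff1 at 2.66 and 49.6 (18.6) and Agr2 at 1.33 and 45.1 (34.0). Fcgbp was at 7.31 and 16.0 (2.18, 1.76 to 2.73). Muc5ac had 0 and 20 UMIs, at least 4.39-fold higher when the 0 is set to 3 UMIs. Galnt6 was at 27.4 and 26.0 (0.949, 0.836 to 1.08), with a log2 ratio of -0.08 that was 0.11 without the mitochondrial, ribosomal and most abundant genes and 0.01 at Leiden resolution 2. Of the 6 genes with at least 20 UMIs, 5 were at least 2-fold higher, where 10.7% of all 12733 genes in these cells were, and none was 2-fold lower, where 6.43% were. Their median log2 ratio was 4.33, or 3.17 with Muc5ac at its bound, and that of all genes was 0.11.

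Immune-like cells also held more Muc5b, Tff1 and Agr2 RNA in the progesterone library, at higher levels than the squamous-like cells. Muc5b was at 6.61 CPM in control and 226 in progesterone immune-like cells (ratio 34.3, 13.2 to 127, on 4 control UMIs), Tff1 at 16.5 and 186, and Agr2 at 6.61 and 76.5. Fcgbp had 1 and 22 UMIs, and Galnt6 stood at 23.1 and 13.1 (0.565, 0.245 to 1.30). Here 4 of 5 genes with at least 20 UMIs were at least 2-fold higher beside 3.77% of all 6816 genes, and none was 2-fold lower beside 5.25%. Muc5ac had 1 UMI and Tff2 none in 805 cells. Of the macrophage-like clusters, cluster 20 (16 control and 172 progesterone cells) also held keratin RNA. Its Krt5 was at 1208 CPM and its Krt8 at 86.8, beside 149 and 9.23 in cluster 14 (233 and 184 cells). The part of such epithelial RNA in the immune-like values was not tested.

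Every cell was also thinned to 500 UMIs, the lowest depth in the files, so that the shallow immune-like cells (median depths 687 and 835) could be compared with the squamous-like cells (4968 and 4872). Muc5b was then found in 9.13% of progesterone neutrophil-like cells, 12.4% of macrophage-like cells and 3.45% (2.92% to 4.03%) of squamous-like cells. In the control library these shares were 0.870%, 0% and 0.108%. The squamous-like share with progesterone was below that of the immune-like cells (10.6%, 8.52% to 12.9%). The same order held for Tff1 (2.64% against 11.7%) and Agr2 (1.92% against 4.35%). In the suprabasal squamous-like cells alone, however, Agr2 was at 4.43% (3.14% to 6.05%), level with the immune-like share. Whether squamous-like cells made any of this RNA was not tested, and neither was the part of free RNA.

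Galnt6 in progesterone suprabasal squamous-like cells went the other way. It was found in 3.11% (2.04% to 4.52%) of them with progesterone against 0.870% (0.350% to 1.78%) of immune-like cells, and its level was 55.6 CPM with progesterone and 34.0 in the control library (ratio 1.64, 1.39 to 1.93). Different clusters held most suprabasal cells of each library: cluster 4, led by Krt10 and Krt13, with progesterone and clusters 2 and 16 in the control library. In basal squamous-like cells Galnt6 was at 19.3 CPM in the control library and 16.1 with progesterone (ratio 0.835, 0.676 to 1.04).

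The proportions among the genes also differed between classes of the progesterone library. For every 100 Muc5b UMIs, luminal-like cells had 94.5 of Tff1 and 55.4 of Agr2, basal squamous-like cells 74.5 (67.9 to 81.6) and 48.4 (43.5 to 53.7), and immune-like cells 82.2 (67.3 to 100.3) and 33.8 (25.7 to 44.0). Suprabasal squamous-like cells had 118 of Agr2 (104 to 135) and 75.3 of Galnt6 (64.9 to 87.3), where luminal-like cells had 5.75 of Galnt6. Part of the squamous signal was in a few cells: 12 of 4324 progesterone squamous-like cells had 10 or more Muc5b UMIs and carried 25.0% of the class's Muc5b UMIs. Whether such droplets held a second cell was not tested beyond the doublet removal.

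Unnamed clusters also held some mucus RNA. Cluster 9 (442 progesterone cells, median 804 UMIs) had 1046 Muc5b and 2836 Tff1 UMIs, 271 Tff1 UMIs for every 100 of Muc5b. In cluster 15 of the control library, 5 of 335 cells with 10 or more Muc5b UMIs carried 74.3% of its 140, and 1 thinned cell had 258 of its 2000 UMIs from the 7 genes.

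The wider machinery of mucus secretion was read from 6 gene lists in the luminal-like cells. Of the other gel-forming mucins and trefoil factors, the 3 in the files had under 20 UMIs each. Among 10 genes of mucus granule partners with at least 20 UMIs, 6 were at least 2-fold higher with progesterone, beside 13.3% of all genes. Another 2 were at least 2-fold lower, beside 7.72%, and the median log2 ratio was 1.87. However, 4 of the 10 genes had no control UMI. With such zeros set to 3 UMIs, 4 were at least 2-fold higher, beside 10.4% of all genes counted that way, and the median was 0.08 beside 0.03 over all genes. Clca1, a secreted protease of goblet cells, was at 226 and 4992 CPM (22.1-fold, 19.0 to 25.8), Scgb3a1 had 0 and 758 UMIs (at least 21.0-fold higher), and Slc12a2, a chloride transporter, was 6.18-fold higher. Bcas1 (ratio 0.239) and Ltf, encoding the antimicrobial lactoferrin (4646 and 1582 CPM, ratio 0.340), were lower.

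Clca1 did not follow Muc5b over the clusters: it stood at 170 CPM in cluster 6, 5798 in cluster 8 and 14111 in cluster 10, while Muc5b was highest in cluster 6.

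Of 23 genes for mucin folding and secretory stress, 8 were at least 2-fold higher, beside 13.3% of all genes (7 with zeros at 3 UMIs, beside 10.4%). None was 2-fold lower, beside 7.72% of all genes, and the median log2 ratio was 0.55. Creb3l1 was 14.8-fold higher (6.31 to 45.6, on 5 control UMIs), Creb3l4 3.65-fold and Xbp1 2.26-fold, all of them transcription factors of the secretory pathway. The chaperone gene Calr stood at 922 and 805 CPM (ratio 0.873, 0.809 to 0.944).

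For mucin-type O-glycosylation, 6 of 27 genes were at least 2-fold higher, beside 13.3% of all genes, none was 2-fold lower, beside 7.72%, and the median was 0.68. C1galt1, which extends the first sugar to core 1, was at 16.7 and 105 CPM (6.29-fold, 3.66 to 11.9), and the sialyltransferase genes St6galnac2 and St6galnac1 were 3.63-fold and 2.58-fold higher. Galnt1, which starts glycan chains as Galnt6 does, was lower (0.668, 0.474 to 0.968).

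Of 11 genes of granule storage and release, 1 was at least 2-fold higher, beside 13.3% of all genes, and none with zeros at 3 UMIs. None was 2-fold lower, beside 7.72%, and the median was 0.29, or 0.20 with zeros at 3 UMIs. Rab3d, a small GTPase of secretory granules, was at 108 and 136 CPM (ratio 1.26, 1.01 to 1.59). Rab27a (0.508), Vamp8 (0.721) and Marcks (0.805), which act in granule docking and fusion, were lower. Of 11 secretory cell regulators, 5 were at least 2-fold higher, beside 13.3% of all genes, none was 2-fold lower, beside 7.72%, and the median was 0.87. Sox9 was 7.30-fold higher (2.83 to 26.9, on 4 control UMIs) and Foxa3 3.37-fold, while Elf3 (0.511) and Klf4 (0.849) were lower. Spdef, the regulator known for driving goblet cell maturation, was at 161 and 344 CPM, with 218 in cluster 21 and 505 in cluster 6.

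**Figure D5:**
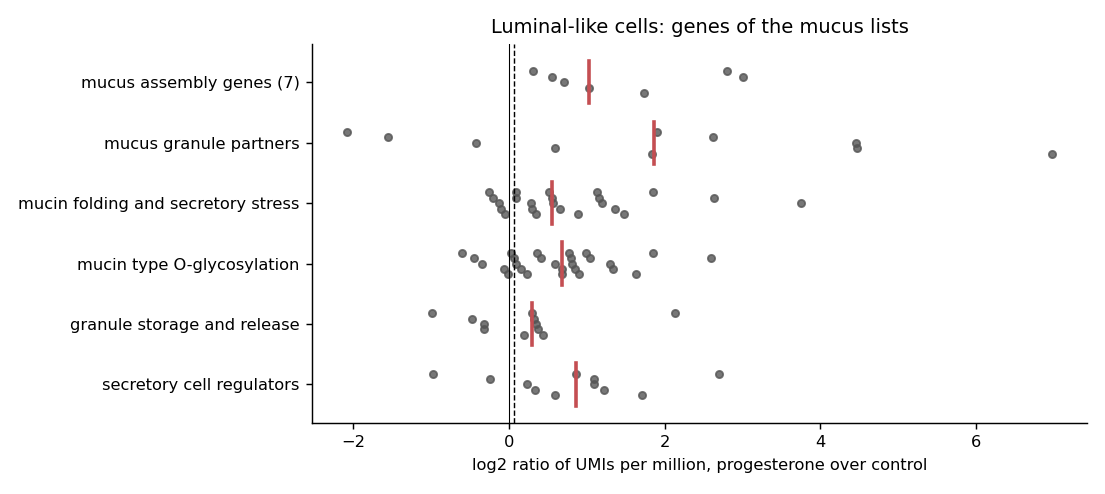
Log2 ratio of CPM, progesterone over control luminal-like cells (0.5 added to both counts), for each gene with at least 20 UMIs in the 7 mucus genes and 5 lists; red bars are list medians and the dashed line is the median of all genes (0.07). The medians run from 0.29 (granule storage) to 1.87 (granule partners), and 4 of the granule partners had no control UMI, so their points depend on the added 0.5 and their list median is 0.08 with zeros at 3 UMIs.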

How the data were processed

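Single-cell 3′ RNA libraries of dissociated cervix were counted by the authors with Cell Ranger 3.0.2 on mm10, per the submitters' processing notes. The deposited values are raw UMI counts per gene and barcode, and the lowest barcode holds 500 UMIs. Barcodes needed 200 detected genes and a mitochondrial share no higher than 20%. Doublets were removed by a score against simulated doublets, at a rate growing with the number of barcodes (181 control and 680 progesterone cells). Both libraries were clustered together on 2000 variable genes, without the 7 genes and the list genes, with 30 components, 15 neighbours and Leiden resolution 1 (leidenalg 0.10.2). Clusters were named from fixed markers with thresholds set after the clusters were seen, and 840 control and 1365 progesterone cells stayed unnamed. Levels are a class's summed UMIs in one library, as counts per 1000000 UMIs (CPM). Intervals are exact Poisson for levels, Clopper-Pearson for shares and conditional binomial for ratios. Only the ratio intervals were tested on simulated data. From each list the text names up to 3 genes per direction, those whose interval bound lies farthest from 1, among genes with at least 20 UMIs. One gene that this rule names is not reported here. Clca1 across clusters, Spdef and the values of Galnt6 by layer were chosen after their values were seen. The genes and lists were chosen with earlier results of these data known. Gene positions are from GENCODE and promoters from RefSeq.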

Additional observations from a re-analysis of the deposited data

How the results depend on the processing

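With 1 library per group, animal variation could not be measured. Muc5ac and Tff2 had 5 and 1 UMIs in control luminal-like cells, so their ratios have wide intervals. The median log2 ratio of the 7 genes in luminal-like cells was positive in all 9 alternatives. It was 3.08 with the libraries clustered apart, 2.46 with unnamed clusters led by luminal markers counted in, and 0.61 without cluster 24, where the log2 ratio of Tff1 was -0.12. The last 2 choices and thinning to 500 UMIs were made after seeing the data. The share of progesterone Muc5b UMIs in luminal-like cells (95.6%) was 94.7% without doublet removal, 96.7% with the stricter cell filter, 92.7% clustered apart and 97.0% with the unnamed clusters. The control share with Muc5b (27.3%) was 8.55% clustered apart, 16.0% with a Krt8 plus Krt18 gate, 36.5% thinned to 4000 UMIs, 19.8% thinned to 500, 11.1% with the unnamed clusters and 36.9% without cluster 24. The progesterone share (88.7%) was, in order, 90.8% clustered apart, 60.7% with the gate, 74.96% thinned to 500, 85.5% with the unnamed clusters, 86.7% without doublet removal, 85.3% with the stricter filter and 82.4% at 2 UMIs or more. The excess of Agr2 in Muc5b-positive progesterone cells (56.7 percentage points) was 65.2 clustered apart, 67.9 with the gate, 49.6 thinned to 4000 and 40.9 thinned to 500. The median log2 ratio of all genes (0.07) was 0.19 without the mitochondrial, ribosomal and most abundant genes, 0.27 clustered apart, 0.29 with the unnamed clusters and -0.15 without the filter on low counts. The causes were not tested. No paired analysis was possible because each group was 1 pooled library.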
